A study of Mus musculus with 2 samples.

Results

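The genes described are those of the mitochondrial respiratory chain and ATP synthase, taken by symbol from both single-cell matrices. They comprise the Nduf subunit and assembly genes, the 4 Sdh genes, the Uqcr genes, the Cox4 to Cox8 genes, the Atp5 genes and every gene of the mitochondrial genome (symbols beginning mt-). Of the 32285 genes in the matrices, 107 were members, 94 encoded in the nucleus and 13 in mitochondrial DNA. The nuclear members divided into 36 subunits of complex I, 8 complex I assembly factors, 4 subunits of complex II, 8 of complex III, 20 of complex IV, 17 of ATP synthase (complex V) and 1 pseudogene symbol, Ndufb1-ps. The mitochondrial members were 7 subunits of complex I, 1 of complex III, 3 of complex IV and 2 of complex V.

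Marrow cells of C57Bl6 mice, wild type and aged 8 weeks per the title of the series, were sorted as haematopoietic stem cells and sequenced with a 10x Genomics droplet kit that counts each RNA molecule once by its unique molecular identifier (UMI). The ST-HSC (short-term) library came from LSK cells, that is lineage-negative cells with Sca-1 and Kit, gated as CD34-, CD150+ and CD48+. The LT-HSC (long-term) library came from LSK cells gated as CD34-, CD150+, CD48- and Flk2-. Each group was 1 library, so differences have no replicate check, no p-value can be had, and all intervals below are 95% intervals of counting error only.

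Complexes I to IV pass electrons from NADH and succinate to oxygen and pump protons across the inner mitochondrial membrane, and ATP synthase uses the proton gradient to make ATP. Most subunits are encoded in the nucleus and imported, whereas mitochondrial DNA encodes the membrane-embedded core of every complex except complex II, so the chain is assembled from the products of both genomes. Quiescent haematopoietic stem cells are known to rely largely on glycolysis, and mitochondrial respiration increases as they commit to erythroid and other lineages.

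Of the mitochondrial transcripts, a pair share their RNA molecule with a neighbour, and their sequences are shown because their counts went with or against that neighbour's. The sense strand is given 5′ to 3′ from mm10, with the bases that also belong to the next gene in capitals. The mt-Atp8 gene lies at chrM:7766-7969 and shares its last 43 bases with mt-Atp6, which encodes the proton channel subunit a of ATP synthase. The mt-Nd4l gene lies at chrM:9877-10173 and shares its last 7 bases with mt-Nd4, another membrane subunit of complex I.
mt-Atp8: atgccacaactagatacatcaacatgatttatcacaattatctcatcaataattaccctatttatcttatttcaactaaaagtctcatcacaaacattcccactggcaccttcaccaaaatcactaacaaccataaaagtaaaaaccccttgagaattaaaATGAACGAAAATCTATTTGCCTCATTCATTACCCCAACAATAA
mt-Nd4l: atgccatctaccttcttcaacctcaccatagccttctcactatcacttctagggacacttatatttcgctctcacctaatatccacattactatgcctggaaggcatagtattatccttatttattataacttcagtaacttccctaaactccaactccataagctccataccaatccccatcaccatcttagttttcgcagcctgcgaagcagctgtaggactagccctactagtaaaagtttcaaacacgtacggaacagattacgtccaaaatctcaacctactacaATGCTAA

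The promoters of 3 nuclear members are shown because all are lower in the ST-HSC library and higher in Car1-high cells, while Cox6b2 differs from Cox6a1 and Sdhd in motif content. RefSeq promoters (GRCm38.p6, from 250 bases before to 50 bases after the start) were found for 77 of the 94 nuclear members. The 150 bases before the start are printed, on the minus strand in each case, with motif matches in capitals, namely GCGC, any base and then TGCGC, a core of the site of nuclear respiratory factor 1 (NRF1), and CCGGAAG, a core of the site of ETS factors such as GABP. Either strand was searched. Cox6a1 lies at chr5:115348959-115349108, Sdhd at chr9:50603850-50603999 and Cox6b2 at chr7:4753095-4753244.
Cox6a1: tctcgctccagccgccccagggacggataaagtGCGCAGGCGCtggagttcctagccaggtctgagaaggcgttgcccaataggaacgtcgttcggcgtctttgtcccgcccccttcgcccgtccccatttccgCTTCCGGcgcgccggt
Sdhd: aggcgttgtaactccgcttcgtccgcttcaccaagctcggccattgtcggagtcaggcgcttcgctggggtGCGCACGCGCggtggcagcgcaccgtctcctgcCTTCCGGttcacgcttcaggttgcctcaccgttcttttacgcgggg
Cox6b2: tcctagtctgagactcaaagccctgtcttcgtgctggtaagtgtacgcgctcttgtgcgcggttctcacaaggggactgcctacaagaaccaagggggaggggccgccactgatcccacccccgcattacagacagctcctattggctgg

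The NRF1 letters stood in 23.4% of the members' promoters, against 4.78% of all 27025 promoters of that length. The ETS letters stood in 23.4% of the members' promoters and 9.12% of all promoters, and 41.6% of the members' promoters against 13% of all held either. AANATGGC, letters of the YY1 site, stood in 22.1% of the members' promoters and 6.23% of all, and AGATAA, letters of a GATA site, in 7.79% of the members' promoters and 11.4% of all. The members' promoters had a median GC content of 58.7%, against 52.7% over all promoters, and the part of base composition in these shares was not tested. A match is a description of letters, not a site in use.

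Cells with at least 1000 genes and under 10% of UMIs from mt- genes were kept. These were 6648 of 7586 barcodes in ST-HSC, with a median of 13402 UMIs, and 2722 of 2938 in LT-HSC, with a median of 17595 UMIs. The libraries shared 8 barcodes. RNA of the gate genes went partly against the ST-HSC label. Slamf1, which encodes CD150, was at 1.26 UMIs per 1e6 UMIs (CPM) in ST-HSC and 26.5 CPM in LT-HSC, and Cd34 was at 242 CPM in ST-HSC and 29.2 CPM in LT-HSC. Cd48 and Flt3, which encodes Flk2, went with the labels, Cd48 at 74.7 CPM in ST-HSC and 35.3 CPM in LT-HSC and Flt3 at 291 CPM in ST-HSC and 5.50 CPM in LT-HSC. Directions are therefore between libraries as labelled.

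Cells were classed by 1 gene each. Car1-high cells had at least 50 UMIs of Car1 (carbonic anhydrase 1, of erythroid cells) per 10000, Pf4-high cells at least 10 of Pf4 (a platelet chemokine), Dntt-positive cells at least 2 UMIs of Dntt (which adds bases at antigen receptor joints in early lymphoid cells), and Hlf-high cells at least 4 of Hlf (a transcription factor of stem cells) per 10000. ST-HSC held 2595 Hlf-high and 1004 Dntt-positive cells, 672 cells that were both, 42 Car1-high, 5 Pf4-high and 2324 cells in no class. LT-HSC held 458 Car1-high, 248 Pf4-high, 1 Dntt-positive and 600 Hlf-high cells, and 1409 in no class. The classes are ranges and not cell types. Within 20% of the cut lay 802 ST-HSC and 287 LT-HSC cells for Hlf, 167 LT-HSC cells for Car1 and 36 for Pf4, and 993 ST-HSC cells had 1 or 2 Dntt UMIs. Classes under 50 cells in a library were not compared.

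The marker lists were summed without the gene that defined each class. The other 8 erythroid markers summed to 2698 CPM in LT-HSC Car1-high cells and 921 CPM in LT-HSC Hlf-high cells. The other 7 megakaryocyte markers summed to 943 CPM in Pf4-high cells and 281 CPM in LT-HSC Hlf-high cells. The other 6 lymphoid progenitor markers summed to 1201 CPM in Dntt-positive cells and 473 CPM in ST-HSC Hlf-high cells. The other 7 stem cell markers summed to 2933 CPM in ST-HSC Hlf-high and 2669 CPM in LT-HSC Hlf-high cells, against 152 CPM in LT-HSC Car1-high, 1035 CPM in Pf4-high and 1503 CPM in Dntt-positive cells. Mature B cell markers summed to 0.707 CPM in ST-HSC and 0.680 CPM in LT-HSC. The lymphoid markers Il7r and Rag1 were at 0 in both LT-HSC Car1-high and Pf4-high cells, and Il7r and Mpo were at 0 in LT-HSC Hlf-high cells. The neutrophil-monocyte list that holds Mpo still summed to 518 CPM in LT-HSC Hlf-high cells, with Prtn3 at 516 CPM. In ST-HSC Hlf-high cells it summed to 477 CPM.

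The members' share of all UMIs differed in opposite directions for the 2 genomes. Mitochondrially encoded members made up 3.50% of UMIs in ST-HSC and 1.67% in LT-HSC, a ratio of 2.09 (2.09 to 2.10). Nuclear members made up 1.99% of UMIs in ST-HSC and 2.72% in LT-HSC, a ratio of 0.733 (0.732 to 0.734). For each nuclear member UMI there were 1.75 mitochondrially encoded ones in ST-HSC and 0.615 in LT-HSC.

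The mitochondrial difference stood in every class that could be set side by side, while the nuclear share differed less between libraries than between classes. In Hlf-high cells the mitochondrially encoded share was 3.59% in ST-HSC and 2.01% in LT-HSC, and the nuclear share was 1.64% in ST-HSC and 1.76% in LT-HSC. In cells of no class the mitochondrially encoded share was 3.46% in ST-HSC and 1.74% in LT-HSC, and the nuclear share was 2.40% in ST-HSC and 2.45% in LT-HSC. The 42 Car1-high cells of ST-HSC, too few to compare, had 3.71% mitochondrially encoded and 3.21% nuclear. The 458 of LT-HSC had 1.47% mitochondrially encoded and 3.48% nuclear.

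**Figure D1:**
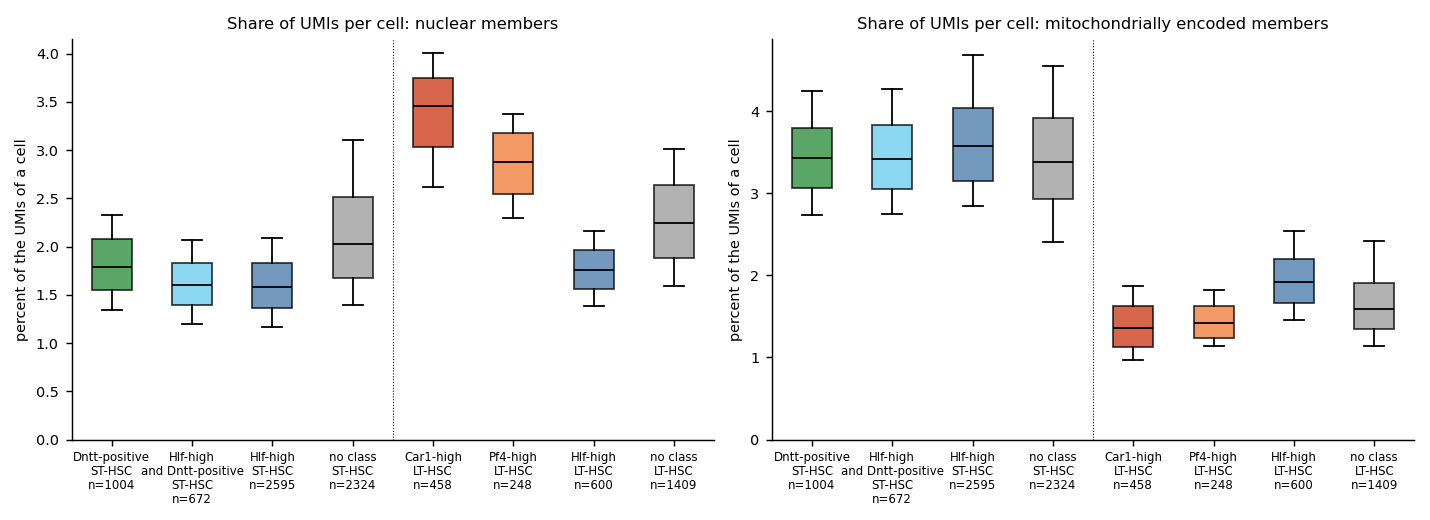
Share of each cell's UMIs from nuclear (left) and mitochondrially encoded (right) respiratory chain genes, in percent, by class and library, with boxes for the quartiles and whiskers from the 10th to the 90th percentile of cells. The nuclear share is highest in Car1-high cells, with a median of 3.46% in LT-HSC, while the mitochondrially encoded share separates the libraries, with medians of 3.57% in ST-HSC and 1.91% in LT-HSC Hlf-high cells.

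The spread of single cells shows the same separation. The 10th to 90th percentiles of the mitochondrially encoded share ran from 2.85% to 4.69% in ST-HSC Hlf-high cells and from 1.46% to 2.54% in LT-HSC Hlf-high cells, so these central ranges did not overlap. The nuclear share ran from 1.17% to 2.08% in ST-HSC Hlf-high cells and from 1.38% to 2.16% in LT-HSC Hlf-high cells, which overlap over most of their length. Barcodes with 10% or more mt- UMIs, left out here, were 10.2% of those deposited in ST-HSC and 6.40% in LT-HSC. Malat1, a nuclear RNA used as a sign of RNA quality, was at 9235 CPM in ST-HSC Hlf-high cells and 18026 CPM in LT-HSC Hlf-high cells, and the part of RNA quality in the difference was not tested.

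Genes were compared by size alone, on UMIs summed over cells. A gene counts as lower at a CPM ratio of 0.8 or less and as higher at the inverse of 0.8 or more, if its mean CPM over both groups was at least 5 with at least 50 UMIs in all. Between the libraries 38.5% of 10412 genes were higher in ST-HSC and 23% lower. All 13 mitochondrially encoded members passed the filter, of which 10 were higher in ST-HSC and 1 lower, with a median log2 ratio of 0.90 against 0.12 over all genes. Within Hlf-high cells, where 28.2% of 10748 genes were higher in ST-HSC and 25.5% lower, the counts were again 10 higher and 1 lower, with a median of 0.65 against 0.01 over all genes. The Hlf-high cells of the libraries were not alike in other markers. The 6 lymphoid progenitor markers other than Dntt summed to 473 CPM in ST-HSC and 54.4 CPM in LT-HSC. Cycling markers summed to 926 CPM in ST-HSC and 298 CPM in LT-HSC, and the part of both was not tested. The mitochondrial counts held at these values under the scaling alternatives and in the cells of no class.

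Among complex I transcripts, mt-Nd3, a membrane subunit, had the highest ratio. It was at 565 CPM in ST-HSC and 146 CPM in LT-HSC, 3.88-fold higher (3.80 to 3.96), and 4.22-fold higher in Hlf-high cells and 4.03-fold higher in cells of no class. The core membrane subunits mt-Nd2 and mt-Nd1 had ratios of 2.54 and 1.90, and mt-Nd4 was at 1836 CPM in ST-HSC and 1041 CPM in LT-HSC, 1.76-fold higher. The large membrane subunit mt-Nd5 was at 338 CPM in ST-HSC and 287 CPM in LT-HSC, a ratio of 1.18, and at a ratio of 0.982 (0.943 to 1.02) in Hlf-high cells, which covers 1. mt-Nd6, a subunit encoded on the opposite strand and overlapping the end of mt-Nd5, was at 35.1 CPM in ST-HSC and 21.2 CPM in LT-HSC, 1.66-fold higher (1.56 to 1.76).

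The small subunit mt-Nd4l was the 1 mitochondrially encoded member that was lower in ST-HSC. It was at 122 CPM in ST-HSC and 193 CPM in LT-HSC, a ratio of 0.634 (0.618 to 0.649), with ratios of 0.628 in Hlf-high cells and 0.700 in cells of no class. Its neighbour mt-Nd4, whose reading frame begins in the capitals printed above, was higher in each of these. In the other overlapping pair, mt-Atp6 was at 6044 CPM in ST-HSC and 1980 CPM in LT-HSC, 3.05-fold higher (3.04 to 3.07), and mt-Atp8 was at 52.7 CPM in ST-HSC and 35.7 CPM in LT-HSC, 1.48-fold higher (1.41 to 1.55). Reads within shared bases cannot be given to one gene of a pair.

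The 3 catalytic core subunits of complex IV were all higher in ST-HSC. The largest transcript pool, mt-Co3, was at 8023 CPM in ST-HSC and 3216 CPM in LT-HSC, 2.5-fold higher. The copper-binding subunit mt-Co2 was 2.45-fold higher, and mt-Co1, which holds the oxygen-reducing centre, was at 5910 CPM in ST-HSC and 3171 CPM in LT-HSC, 1.86-fold higher but 1.30-fold higher in Hlf-high cells. Cytochrome b of complex III, mt-Cytb, stayed between the limits at 3425 CPM in ST-HSC and 2887 CPM in LT-HSC, a ratio of 1.19. It therefore made up 9.80% of mitochondrially encoded UMIs in ST-HSC and 17.3% in LT-HSC, whereas mt-Atp6 made up 17.3% in ST-HSC and 11.8% in LT-HSC.

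**Figure D2:**
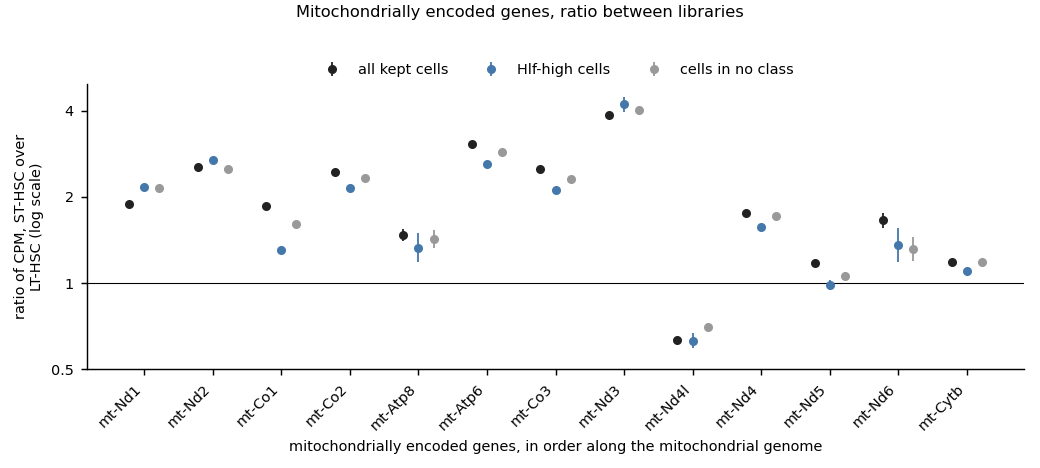
Ratio of CPM, ST-HSC over LT-HSC, on a log axis, for each of the 13 mitochondrially encoded genes in genome order, in all kept cells, Hlf-high cells and cells of no class, with bars for 95% counting intervals. The ratios differ between genes more than between classes, from 0.634 for mt-Nd4l to 3.88 for mt-Nd3 in all kept cells.

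Nuclear members were lower in the ST-HSC library as a whole. Of 87 that passed the filter, 59 were lower in ST-HSC and 2 higher, with a median log2 ratio of -0.47 against 0.12 over all genes. Under TMM scaling 74 were lower and 0 higher, against 31.0% of all genes lower and 30.9% higher. Without the Car1-high and Pf4-high cells, which were 0.632% and 0.0752% of ST-HSC cells and 16.8% and 9.11% of LT-HSC cells, 31 of 88 members were lower, against 22.4% of all genes under that setting. In cells of no class alone 9 of 87 were lower, against 22.1% of all genes, and both of these settings were chosen after seeing the data. Over whole libraries the 8 erythroid markers other than Car1 summed to 926 CPM in ST-HSC and 1630 CPM in LT-HSC. Of these, the globin genes went the other way. Hbb-bs was at 44.2 CPM in ST-HSC and 4.41 CPM in LT-HSC, and Hba-a1 at 28.9 CPM in ST-HSC and 2.01 CPM in LT-HSC. The 7 megakaryocyte markers other than Pf4 summed to 73.7 CPM in ST-HSC and 278 CPM in LT-HSC. The 6 lymphoid progenitor markers other than Dntt summed to 639 CPM in ST-HSC and 17.6 CPM in LT-HSC. Neutrophil-monocyte markers summed to 1409 CPM in ST-HSC and 174 CPM in LT-HSC. The part of all these markers in the count was not tested. Within Hlf-high cells 15 of 88 members were lower in ST-HSC and 6 higher, with a median of -0.10 against 0.01 over all genes, so the share called lower was below that of all genes.

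Complex I subunits showed the pattern of the whole, with 22 of 36 lower in ST-HSC and 0 higher. Ndufa1, a small accessory subunit, was at 111 CPM in ST-HSC and 202 CPM in LT-HSC, and Ndufa3 at 137 CPM in ST-HSC and 240 CPM in LT-HSC, 1.81-fold and 1.75-fold lower. Ndufs4 and Ndufs6, accessory subunits of the arm that takes electrons from NADH, were at log2 ratios of 0.15 and 0.02, the second of which was -0.11 under TMM, a scaling to the trimmed mean of gene ratios. In Hlf-high cells Ndufs6 was higher, at 95.9 CPM in ST-HSC and 68.5 CPM in LT-HSC, and 6 subunits were lower, of which Ndufb10 had the lowest log2 ratio at -0.52. Of the 8 assembly factors 6 were lower in the whole library, with Ndufaf1 lowest at -0.73. Ndufb1-ps, whose symbol carries a pseudogene suffix, was at 294 CPM in ST-HSC and 480 CPM in LT-HSC. How reads shared between a member and a processed pseudogene copy were counted is not given in the sources used here.

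The 4 subunits of complex II, succinate dehydrogenase, did not move together. Sdha, the flavoprotein that oxidises succinate, was higher in ST-HSC, at 109 CPM in ST-HSC and 85.2 CPM in LT-HSC, 1.28-fold (1.24 to 1.32), but inside the limits under TMM scaling at a log2 ratio of 0.22 (0.36 without it). Its partner Sdhb, which carries the iron-sulfur clusters, was at 112 CPM in ST-HSC and 188 CPM in LT-HSC, 1.68-fold lower. A like split stood in Hlf-high cells, where Sdha was 1.35-fold higher (1.24 to 1.47) and Sdhb was 1.30-fold lower. The membrane anchors Sdhc and Sdhd were at log2 ratios of 0.09 and -0.58 in all kept cells and 0.41 and -0.09 in Hlf-high cells, and the first of these turned to -0.05 under TMM scaling.

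In complex III, 6 of 8 nuclear subunits were lower in ST-HSC. The Rieske iron-sulfur protein Uqcrfs1 was at 111 CPM in ST-HSC and 189 CPM in LT-HSC, and the small subunit Uqcrb at 268 CPM in ST-HSC and 479 CPM in LT-HSC. Both stayed lower within Hlf-high cells, at log2 ratios of -0.68 and -0.60. The core protein Uqcrc1 was at 142 CPM in ST-HSC and 159 CPM in LT-HSC in all kept cells, with a log2 ratio of 0.31 in Hlf-high cells, inside the limits.

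In ATP synthase 12 of 17 members were lower in ST-HSC and 0 higher. The c-ring genes Atp5g1, Atp5g2 and Atp5g3 encode the same mature protein. Atp5g1 was at 398 CPM in ST-HSC and 764 CPM in LT-HSC, 1.92-fold lower, and Atp5g2 and Atp5g3 were 1.79-fold and 1.78-fold lower. The head subunits alpha, Atp5a1, and beta, Atp5b, had log2 ratios of 0.19 and 0.23 in all kept cells, inside the limits. In Hlf-high cells both were higher, Atp5b at 400 CPM in ST-HSC and 257 CPM in LT-HSC, 1.56-fold (1.49 to 1.63), and Atp5a1 1.31-fold. Of the c-ring genes only Atp5g2 was lower in Hlf-high cells, at 513 CPM in ST-HSC and 699 CPM in LT-HSC, while Atp5g1 and Atp5g3 had log2 ratios of -0.16 and -0.26.

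In complex IV, 10 of the 13 nuclear members that passed were lower in the ST-HSC library, with Cox6b2 lowest at a log2 ratio of -1.0. Cox7a2l was the 1 that was higher, at 309 CPM in ST-HSC and 232 CPM in LT-HSC, 1.33-fold (1.31 to 1.36). Under TMM scaling it was inside the limits, at a log2 ratio of 0.28 against 0.41 without. In Hlf-high cells it was inside the limits, at 333 CPM in ST-HSC and 314 CPM in LT-HSC.

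**Figure D3:**
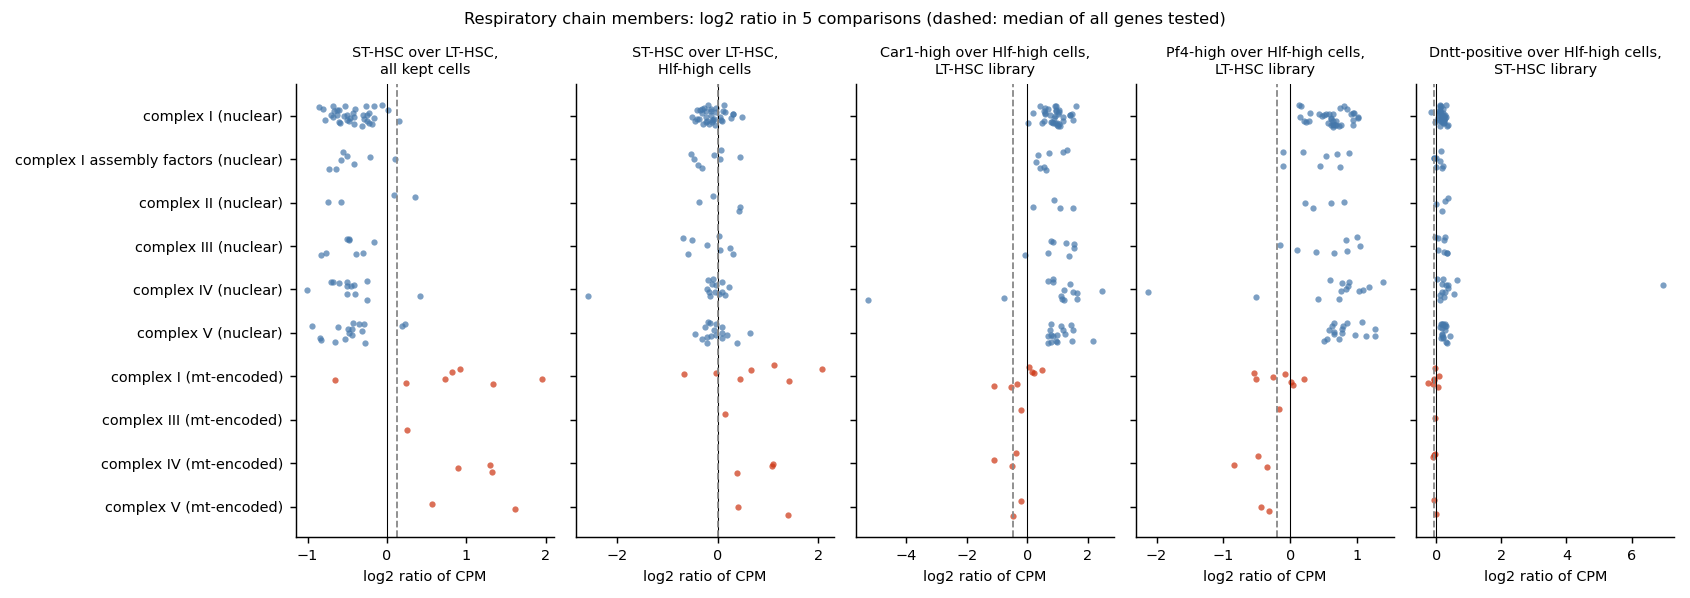
Log2 ratio of CPM for every member that passed the filter except Ndufb1-ps, 1 point a gene, by complex and genome, with 1 panel per comparison and the median of all genes as a dashed line. Nuclear members lie mostly above the all-gene median in the panels of Car1-high and Pf4-high over Hlf-high cells, with medians of 0.95 and 0.66, and mitochondrially encoded members lie highest in the panels of ST-HSC over LT-HSC.

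Within the LT-HSC library, Car1-high cells held more nuclear respiratory chain RNA per UMI than Hlf-high cells, across all complexes. Of 10276 genes, 24.7% were higher in Car1-high cells and 54.5% lower, and of 88 nuclear members 81 were higher and 2 lower. The members' median log2 ratio was 0.95 against -0.46 over all genes. TMM scaling moved all ratios up by 0.68, under which 86 of 88 were higher, against 46.8% of all genes. It turned the split of all called genes to 58.8% higher, against 31.2% without it. By complex, 34 of 36 complex I subunits, 3 of 4 of complex II, 7 of 8 of complex III, 12 of 14 of complex IV and 17 of 17 of complex V were higher.

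Per cell the contrast was larger, and Car1-high cells also held more RNA in all. They had a median of 39551.5 UMIs, of which 1395 came from nuclear members, against 11690.5 UMIs and 204 from nuclear members in LT-HSC Hlf-high cells. Other measures moved with the class. Ribosomal protein genes were at a median of 30.1% of UMIs in Car1-high and 25.4% in Hlf-high cells, and 10 cycling markers at 0.140% in Car1-high and 0.012% in Hlf-high cells. Malat1 was at 5301 CPM in Car1-high and 18026 CPM in Hlf-high cells, and the part of these measures in the result was not tested. Among cells with 8000 to 20000 UMIs in either class, 73 nuclear members were higher and 2 lower, against 22.1% of all genes higher and 51.7% lower. Without cells of high doublet score 81 were higher, against 24.8% of all genes.

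The c-ring gene Atp5g1 had the highest ratio in ATP synthase, at 1271 CPM in Car1-high and 280 CPM in Hlf-high cells, 4.54-fold higher (4.36 to 4.74). Its copies Atp5g3 and Atp5g2 were 2.78-fold and 1.74-fold higher, so the 3 genes for the same protein differed in degree. Atp5o, the stalk subunit that joins head and base, was at 483 CPM in Car1-high and 170 CPM in Hlf-high cells. Ndufa1 of complex I was 3.02-fold higher and Ndufb6 2.86-fold higher, and in complex III the small subunits Uqcr11 and Uqcrq were 2.93-fold and 2.90-fold higher.

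A few nuclear members did not follow. Uqcrh, the hinge protein of complex III, was at 690 CPM in Car1-high and 727 CPM in Hlf-high cells, a log2 ratio of -0.08 that turned to 0.61 under TMM scaling. Ndufs4 was at 134 CPM in Car1-high and 132 CPM in Hlf-high cells. Sdha was at 89.0 CPM in Car1-high and 78.2 CPM in Hlf-high cells, a ratio of 1.14, whereas Sdhb, Sdhc and Sdhd were 2.13-fold, 1.85-fold and 2.83-fold higher. Cox7a2l was lower, at 182 CPM in Car1-high and 314 CPM in Hlf-high cells, but its log2 ratio of -0.78 was -0.10 under TMM scaling.

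The mitochondrially encoded share went the other way. Of 13 members 7 were lower in Car1-high cells and 1 higher, against 54.5% of all genes lower and 24.7% higher. The share called lower was thus near that of all genes. The members' median log2 ratio was -0.33, which is above the -0.46 of all genes. Under TMM scaling 2 were lower and 7 higher, against 32.8% of all genes lower and 46.8% higher. Per cell the median was 521 mitochondrially encoded UMIs in Car1-high and 233 in Hlf-high cells. Median totals were 39551.5 UMIs in Car1-high and 11690.5 UMIs in Hlf-high cells. Among cells with 8000 to 20000 UMIs (57 Car1-high and 399 Hlf-high), 9 members were lower and 0 higher. Of all genes 51.7% were lower and 22.1% higher under that setting. The genes differed, with mt-Co1 at 2298 CPM in Car1-high and 4888 CPM in Hlf-high cells, a log2 ratio of -1.09 that was -0.41 under TMM scaling, and mt-Nd1 at 1182 CPM in Car1-high and 842 CPM in Hlf-high cells, 0.49. mt-Nd6 had a log2 ratio of -1.10, and -0.42 under TMM scaling, on 278 UMIs in Car1-high and 257 UMIs in Hlf-high cells.

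The shares were also taken across the range of Car1, Pf4 and Hlf. In LT-HSC the median nuclear share was 2.08% in cells with under 1 Car1 UMI per 10000, 1.96% at 1 to 5, 2.16% at 5 to 20, 2.52% at 20 to 50, 3.37% at 50 to 100 and 3.70% at 100 or more. The mitochondrially encoded share was 1.70% in the first of these bins and 1.23% in the last. In ST-HSC the nuclear share was 1.71% under 1, 1.63% at 1 to 5, 2.78% at 5 to 20, 3.21% at 20 to 50 and 3.25% in the 42 cells at 50 or more, while the mitochondrially encoded share was between 3.46% and 3.76% in every bin. The ST-HSC cells with 20 to 50 numbered 226. Across Hlf, the nuclear share was 2.79% under 1 and 1.65% at 8 or more in LT-HSC, and 2.11% and 1.49% in ST-HSC. Across Pf4, the nuclear share in LT-HSC was 2.21% under 1, 2.11% at 1 to 3, 2.36% at 3 to 10, 2.69% at 10 to 30 and 2.99% at 30 or more. In ST-HSC it went the other way over the bins of at least 10 cells, at 1.75%, 1.55% and 1.53% in the first 3 of these and 1.38% in the 10 cells at 10 to 30. Median UMIs per cell also differed between bins, from 9919 to 40169 over Car1 in LT-HSC, and their part was not tested.

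**Figure D4:**
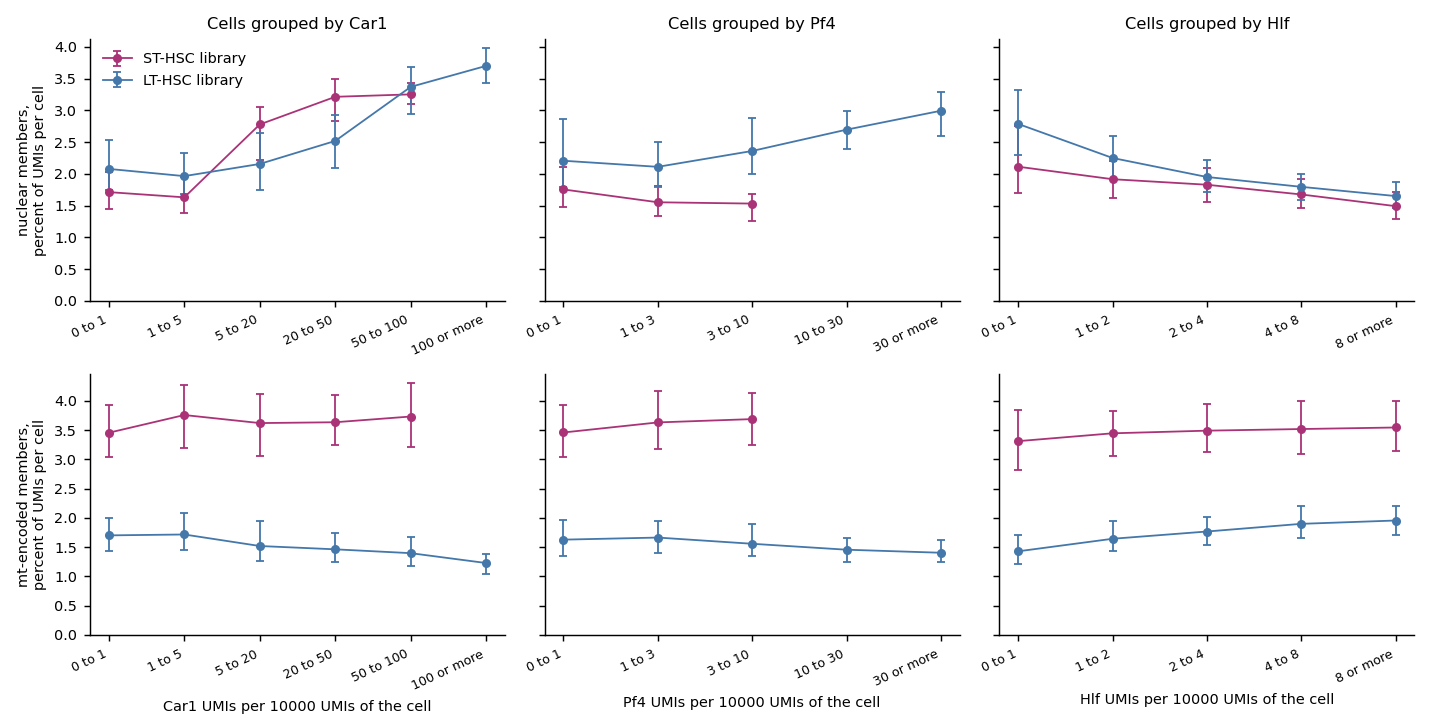
Median share of UMIs per cell from nuclear (top) and mitochondrially encoded (bottom) respiratory chain genes, in percent, across bins of Car1, Pf4 and Hlf UMIs per 10000, with bars for the quartiles of cells and bins of few cells not drawn. In both libraries the nuclear share is higher in the upper Car1 bins and lower in the upper Hlf bins, and the mitochondrially encoded share of ST-HSC stays between 3.46% and 3.76% over Car1.

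Pf4-high cells of LT-HSC resembled Car1-high cells in direction, with smaller ratios. Both are set against the same 600 Hlf-high cells, so the values are given side by side and not as separate support. Of 10481 genes 23% were higher in Pf4-high cells and 42.8% lower, and of 88 nuclear members 73 were higher and 2 lower, with a median log2 ratio of 0.66 against -0.20 over all genes. TMM scaling moved all ratios up by 0.26, under which 83 were higher, against 34.7% of all genes. It turned the split of called genes to 53.3% higher, against 35.0% without it. Per cell the median was 708 nuclear member UMIs in Pf4-high and 204 in Hlf-high cells, at median totals of 24360 UMIs in Pf4-high and 11690.5 UMIs in Hlf-high cells. Cycling markers summed to 1325.5 CPM in Pf4-high and 298 CPM in Hlf-high cells and Malat1 was at 8083 CPM in Pf4-high and 18026 CPM in Hlf-high cells, and their part in the result was not tested.

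The members with the highest ratios were partly those of Car1-high cells. Cox5a, a matrix subunit of complex IV, was at 619 CPM in Pf4-high and 238 CPM in Hlf-high cells, 2.61-fold higher (2.47 to 2.75), and was 3.10-fold higher in Car1-high cells. Atp5k, a small subunit of the membrane part of ATP synthase, and Atp5g1 were each 2.41-fold higher in Pf4-high cells. The members with the lowest ratios included Uqcrfs1, at 154 CPM in Pf4-high and 144 CPM in Hlf-high cells, and the assembly factor Ndufaf1, at 23.5 CPM in Pf4-high and 25.4 CPM in Hlf-high cells, both inside the limits. Cox7a2l was 1.42-fold lower, at a log2 ratio of -0.51 that was -0.25 under TMM scaling.

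Of the 13 mitochondrially encoded members 7 were lower in Pf4-high cells and 0 higher, against 42.8% of all genes lower and 23% higher. Under TMM scaling 1 was lower and 1 higher, against 30.4% of all genes lower and 34.7% higher. mt-Co1 was at 2716 CPM in Pf4-high and 4888 CPM in Hlf-high cells, a log2 ratio of -0.85 and of -0.59 under TMM scaling. The median number of mitochondrially encoded UMIs per cell was 353 in Pf4-high and 233 in Hlf-high cells. Among cells with 8000 to 20000 UMIs (73 Pf4-high and 399 Hlf-high), 10 members were lower and 0 higher. Of all genes 45.1% were lower and 23.0% higher under that setting.

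Dntt-positive cells of ST-HSC were set against Hlf-high cells of the same library. Of 10503 genes 10.7% were higher in Dntt-positive cells and 21.2% lower, and of 88 nuclear members 12 were higher and 0 lower, close to the share of all genes that was higher. The members' median log2 ratio was 0.19 against -0.07 over all genes, and 87 of 88 lay above that median. Of the mitochondrially encoded members 0 were higher and 0 lower, and their share was 3.44% in Dntt-positive and 3.59% in Hlf-high cells. TMM scaling turned the split of called genes to 51.0% higher, against 33.5% without it. Under that scaling 32 nuclear members were higher, against 15.6% of all genes.

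One of the 12, Cox6a2, passed the filter through the Dntt-positive cells alone and so had to differ. Among the other 11, Ndufa4, once placed in complex I and now known as a subunit of complex IV, was at 817 CPM in Dntt-positive and 529 CPM in Hlf-high cells, 1.54-fold higher (1.51 to 1.58), and Cox5a was 1.45-fold higher. The rest were Cox6a1 and Cox7b of complex IV, Ndufab1 and Ndufs6 of complex I, Sdhb, Uqcr11, Uqcrq, Atp5g1 and Atp5o. These had ratios under that of Ndufa4. The median depth was 16273 UMIs in Dntt-positive and 10580 in Hlf-high cells. Among cells with 8000 to 20000 UMIs 3 of 88 members were higher, against 9.44% of all genes. Without cells of high doublet score 5 were higher, against 10.3% of all genes, and 6 by the mean of per-cell CPM, against 11.5%. Cycling markers summed to 1544 CPM in Dntt-positive and 926 CPM in Hlf-high cells, neutrophil-monocyte markers to 841 CPM in Dntt-positive and 477 CPM in Hlf-high cells, and Malat1 was at 6607 CPM in Dntt-positive and 9235 CPM in Hlf-high cells. Their part in the result was not tested.

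Some tissue isoforms of complex IV differed between classes. Cox4i2, an isoform known from lung that is induced by low oxygen, had its highest level per UMI in LT-HSC Hlf-high cells. It was at 0.408 CPM (8 UMIs) in LT-HSC Car1-high, 3.59 CPM (26 UMIs) in Pf4-high, 6.88 CPM (200 UMIs) in LT-HSC cells of no class and 15.7 CPM (133 UMIs) in LT-HSC Hlf-high cells. Its calls against LT-HSC Hlf-high cells rest on that group, through which alone it passed the filter. ST-HSC Hlf-high cells were at 2.62 CPM (90 UMIs). A UMI was found in 1.75% of LT-HSC Car1-high cells, the deepest, and 10.9% of LT-HSC cells of no class, against 16.7% of LT-HSC Hlf-high cells, with at most 6 UMIs in a cell. The common isoform Cox4i1 was instead at 984 CPM in LT-HSC Car1-high and 609 CPM in LT-HSC Hlf-high cells.

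Cox6a2, the isoform of heart and skeletal muscle, was seen with Dntt. It was at 10.8 CPM (204 UMIs) in Dntt-positive cells, 1.68 CPM (25 UMIs) in cells that were both Hlf-high and Dntt-positive, and 0.0872 CPM (3 UMIs) in Hlf-high cells of ST-HSC. It was found in 11.3% of Dntt-positive cells (9.37 to 13.4), at up to 10 UMIs in a cell, against 0.116% of Hlf-high cells. Cells in no class held 59 UMIs in ST-HSC, 22 of them in 1 cell, and 32 UMIs in LT-HSC, from 2 cells. The common isoform Cox6a1 was at 142 CPM in Dntt-positive and 111 CPM in Hlf-high cells.

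Cox6b2, an isoform known from testis, followed Car1. In LT-HSC it was at 232 CPM in Car1-high, 69.1 CPM in Pf4-high and 41.6 CPM in Hlf-high cells, 5.57-fold higher (5.0 to 6.23) in Car1-high than in Hlf-high cells, which is the highest ratio of any member in that comparison. In ST-HSC it was at 243 CPM in the 42 Car1-high and 44.3 CPM in Hlf-high cells, levels close to those of LT-HSC. All 42 Car1-high cells of ST-HSC and 96.9% of those of LT-HSC held a UMI, against 35.3% of Hlf-high cells in ST-HSC and 34.3% in LT-HSC. Its printed promoter held none of the 4 motifs searched.

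**Figure D5:**
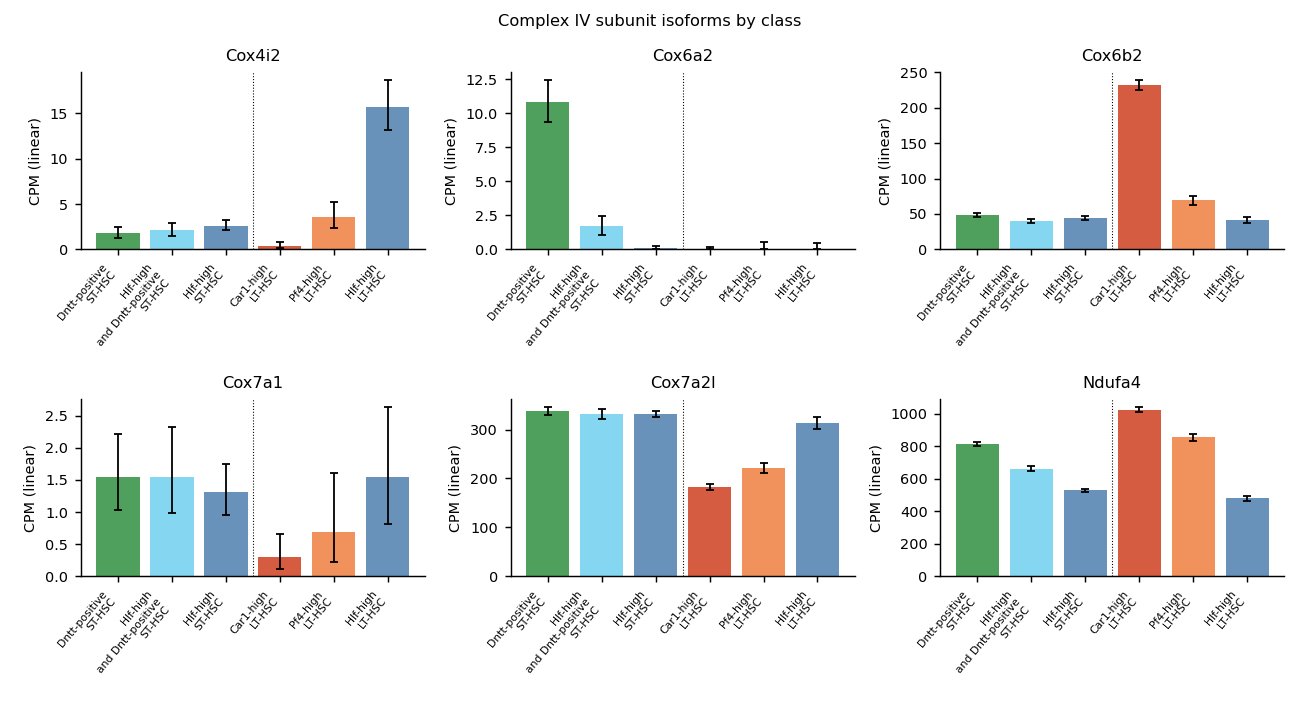
CPM (linear axes) of complex IV isoforms, of Cox7a2l and of Ndufa4 by class and library, for classes of at least 50 cells, with exact 95% Poisson intervals as error bars. Cox4i2 is highest in LT-HSC Hlf-high cells at 15.7 CPM, Cox6a2 in Dntt-positive cells at 10.8 CPM and Cox6b2 in LT-HSC Car1-high cells at 232 CPM.

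The remaining isoforms were rare. Cox7a1, of heart and muscle, was at 1.18 CPM in ST-HSC and 0.711 CPM in LT-HSC. Cox7b2 had 7 UMIs in ST-HSC and 4 in LT-HSC, Cox8b had 0 in ST-HSC and 1 in LT-HSC, and Ndufa4l2 had 1 in ST-HSC and 0 in LT-HSC. Cox8c had 0 in either, which allows up to 0.0268 CPM in ST-HSC and 0.0464 CPM in LT-HSC. These and Cox4i2 and Cox6a2 were the 7 members that did not pass the filter between the libraries, while 6 failed it in each other comparison.

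Genes that serve the chain without being part of it were counted by fixed lists. The mitochondrial ribosome, which translates the mt- transcripts, had 72 of 78 genes higher and 0 lower in LT-HSC Car1-high cells, and 63 higher in Pf4-high cells, against 24.7% and 23% of all genes. Between libraries 63 of the 78 were lower in ST-HSC and 0 higher, against 23% of all genes lower, and within Hlf-high cells 18 were lower, a share near the 25.5% of all genes. Of 23 import genes (Tomm and Timm) 20 were higher in Car1-high cells, with Timm8a1, a chaperone between the membranes, at 213 CPM in Car1-high and 39.7 CPM in Hlf-high cells.

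Of 11 genes of electron carriers and membrane exchange, 10 were higher in Car1-high cells, against 24.7% of all genes. Cytochrome c, Cycs, which carries electrons to complex IV, was at 444 CPM in Car1-high and 82.6 CPM in Hlf-high cells. Slc25a4, an ADP/ATP carrier, was lower, at 179 CPM in Car1-high and 245 CPM in Hlf-high cells, though its log2 ratio of -0.45 is smaller in size than the scaling shift of 0.68. Its relative Slc25a5 was at 862 CPM in Car1-high and 295 CPM in Hlf-high cells. Atpif1, the inhibitor of ATP synthase, was at 2056 CPM in Car1-high and 482 CPM in Hlf-high cells. Ubiquinone synthesis was mixed, with 4 of 13 genes higher and 5 lower, against 24.7% of all genes higher and 54.5% lower. Its median log2 ratio was 0.18 against -0.46 over all genes. Among the lower genes was the kinase-like Coq8a, at 3.67 CPM in Car1-high and 35.9 CPM in Hlf-high cells.

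Genes of mitochondrial DNA upkeep and transcription did not share the direction of the mt- transcripts between the libraries. Of 23 that passed in all kept cells, 11 were lower in ST-HSC and 0 higher, against 23% of all genes lower and 38.5% higher. Within Hlf-high cells 8 of 23 were lower and 2 higher, against 25.5% of all genes lower and 28.2% higher. In all kept cells Tfam, which packages mitochondrial DNA, was at 47.6 CPM in ST-HSC and 60.6 CPM in LT-HSC. Polrmt, the mitochondrial RNA polymerase, was at 7.77 CPM in ST-HSC and 6.56 CPM in LT-HSC, inside the limits. Of 9 nuclear regulators that passed in Hlf-high cells, 6 were higher in ST-HSC and 0 lower, against 28.2% of all genes. Nrf1, whose letters were searched for above, was at 133 CPM in ST-HSC and 61.8 CPM in LT-HSC Hlf-high cells.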

How the data were processed

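Single-cell UMI counts of 2 libraries, ST-HSC and LT-HSC, were used. The authors deposited 1 matrix of raw counts per library, with no normalization, made with Cell Ranger 7.2 on mm10 per the submitters' processing notes, while the file headers name version 7.1.0. The kept cells held 111783180 UMIs in ST-HSC and 64673871 in LT-HSC. UMIs were summed per class and scaled to CPM by the class total. Ratios carry exact conditional binomial (Clopper-Pearson) 95% intervals, CPM exact Poisson intervals and shares of cells exact Clopper-Pearson intervals; a count of 0 has a floor of 3 counts per class. The ratio intervals and size calls were run on simulated counts that held counting error only. That run cannot show how they hold under spread between cells or libraries. Coordinates came from GENCODE M21. Alternatives changed the filters, cuts, depth range, fold, weighting and scaling (TMM of edgeR 4.0.16, median of ratios). No doublet caller was applied, since Scrublet in scanpy 1.11.5 marked none of the 6648 kept ST-HSC cells and 7 of the 2722 kept from LT-HSC; leaving out 402 and 40 cells with high scores was an alternative. Cells meeting more than 1 class rule were in no compared class. Named genes were all mt- members, isoform sets, the Sdh genes, up to 2 highest and 2 lowest ratios per complex and comparison, and for other lists up to 4 by absolute log2 ratio plus a fixed set. The named genes outside this rule were chosen after their values were seen. The members and lists were chosen with earlier results of these data known. Versions used were Python 3.11.15, scipy 1.17.1 and R 4.3.3.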

Additional observations from a re-analysis of the deposited data

How the results depend on the processing

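Of 154 recomputed counts, 135 kept their direction and stayed within 1.5 times the value reported, 15 moved and 4 reversed. The 135 include 4 settings of the class cuts for all kept cells, which those cuts cannot change. They also include the limit of 0.5% cycling UMIs in the Car1-high and Pf4-high comparisons, which left out no cell there. Dropping the CPM minimum could not change a mitochondrially encoded count either, since all 13 members had passed it. The 10 mitochondrially encoded members higher in ST-HSC, in all kept and in Hlf-high cells, were among the 135 under every alternative. So were the 81 and 73 nuclear members higher in Car1-high and Pf4-high cells. At least 7 of the mitochondrially encoded members were higher in ST-HSC throughout. Of the 7 mitochondrially encoded members lower in Car1-high cells, 2 were lower under TMM scaling, 2 under the median of ratios (8 higher) and 2 at a fold of 1.5. Of the 7 lower in Pf4-high cells, 1 was lower under TMM scaling, 1 under the median of ratios (2 higher), 1 at a fold of 1.5 and 4 with the class cuts halved. In Dntt-positive cells the mitochondrially encoded count of 0 higher stayed 0 at 8000 to 20000 UMIs, with 1 lower. The 12 nuclear members higher in Dntt-positive cells became 32 under TMM scaling, 38 under the median of ratios, 22 with doubled cuts, 6 by the mean of per-cell CPM, 5 without high Scrublet scores, 3 at 8000 to 20000 UMIs and 2 at a fold of 1.5. Of all genes 16.9% were higher under the median of ratios, 12.1% with doubled cuts and 4.46% at a fold of 1.5. The 59 nuclear members lower in ST-HSC became 27 at a fold of 1.5, 31 without Car1-high and Pf4-high cells and 9 in cells of no class, and the 15 in Hlf-high cells became 3 at a fold of 1.5. The causes were not tested. In all kept cells TMM scaling moved all ratios between the libraries by -0.13 and turned the split of called genes to 49.9% higher, against 62.6%. In Hlf-high cells it moved them by 0.07, with a split of 60.0% higher, against 52.5%. No paired analysis was possible because each group is 1 library. Depth limits the rare isoforms, and library and sort cannot be told apart.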

Other observations

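Across single cells, Pearson's r between the nuclear and the mitochondrially encoded share was -0.46 over the 600 LT-HSC Hlf-high cells (Spearman's rho -0.36), -0.51 over the 248 Pf4-high cells (rho -0.39) and -0.20 over the 458 LT-HSC Car1-high cells (rho -0.12). In ST-HSC it was -0.21 over the 2595 Hlf-high cells (rho -0.04), -0.09 over the 1004 Dntt-positive cells (rho 0.08) and -0.03 over the 672 cells that were both (rho 0.15). The nuclear share and the share of ribosomal protein genes had a rho of 0.45 in ST-HSC Hlf-high, 0.37 in Dntt-positive, 0.32 in LT-HSC Hlf-high, 0.11 in LT-HSC Car1-high and 0.06 in Pf4-high cells. These describe cells of 1 library each, which share depth, and all the shares have the same denominator.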
